A study of Homo sapiens with 41 samples.

Results

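The 9 genes described here encode chains of the basement membrane, namely the laminin alpha chains LAMA3, LAMA4 and LAMA5, the laminin beta chains LAMB1, LAMB2 and LAMB3, the laminin gamma chain LAMC1 and the collagen IV chains COL4A1 and COL4A2. They were taken by symbol from a table of 57773 genes, and all 9 were found and passed the filter on low counts in every fit. A basement membrane is the thin sheet of matrix on which epithelium and endothelium rest. Its laminins are trimers of an alpha, a beta and a gamma chain that bind cell-surface receptors and polymerise at the cell surface, while collagen IV forms a covalently linked network of trimers, most often built from COL4A1 and COL4A2. In the lung alveolus, epithelium and capillary endothelium share a fused basement membrane, whose laminins differ mainly by their alpha chain.

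RNA came from a layered alveolar culture exposed for 24 h to gold nanoparticles or left without treatment. Cells of the apical compartment were kept at an air-liquid interface and comprised A549 (from a lung adenocarcinoma, used as a stand-in for alveolar epithelium) and differentiated THP1 cells (a monocytic leukaemia line that becomes macrophage-like). The basolateral compartment, grown submerged, held an endothelial line labelled EA.hy296. In each compartment 1 control group and 6 particle groups (spheres, rods or stars, each with 1000 or 500 in the sample title, a number whose unit the labels do not give) made 14 groups of 3 replicates, except basolateral spheres 500 with 2. Within a compartment all groups carried the same cell lines, and each control differed from its particle groups only by the missing particles, as far as the labels say.

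The 21 apical libraries held 5243388 to 11660653 counts and the 20 basolateral libraries 2751299 to 10538069. A count of 3 reads, the limit below which a gene is not distinguished from absent, came to 0.257 to 1.09 counts per 1000000 counts (CPM), so all 9 genes were measured above it in every library. The labelled cells were checked by marker lists. In basolateral control CDH5, the cadherin of endothelial junctions, stood at 821 ± 164.5 CPM (SD, n = 3), whereas the endothelial markers CLDN5 and EMCN were at or near 0 in both compartments. Summed epithelial markers were 15010 to 17940 CPM in apical control, and the basolateral libraries held 4.06 to 28.5% of the apical control mean of that sum, with no epithelial line among their labels. For macrophage markers that share was 5.87 to 32.3%, and for mast cell markers 0.0971 to 42.3%. In basolateral control replicates 1, 2 and 3 it was 17.7, 11.3 and 4.68% for epithelial markers. There it was 20.6, 14 and 6.8% for macrophage and 26.2, 6.19 and 0.465% for mast cell markers. Whether the labelled basolateral cells made this RNA themselves was not tested, and neither was its part in the compartment differences. By KIT, a mast cell marker, the apical libraries parted into 3 sets of 7 (760.0 to 973, 444 to 513 and 103 to 138 CPM). Summed mast cell markers ran from 184.6 to 1230 CPM in apical control. None of the 3 lines that the labels give is a mast cell line, although a tetra-culture is named in the title of the series. The part of these cells in the results was not tested.

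The first question was how the chains differ between the compartments without particles. Of the 9 genes, 7 rose from apical to basolateral control and 2, LAMA5 and LAMB3, did not pass the test. The median log2 fold change of the 9 genes was 1.63, beside -0.08 over all genes tested. Calls were frequent in this comparison. Of 16352 genes tested with edgeR's quasi-likelihood test, 51.4% passed a Benjamini-Hochberg threshold of 0.05 and 24.2% passed it as higher in basolateral control. In bulk RNA, more cells of a type and more RNA per cell cannot be told apart.

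**Figure D1:**
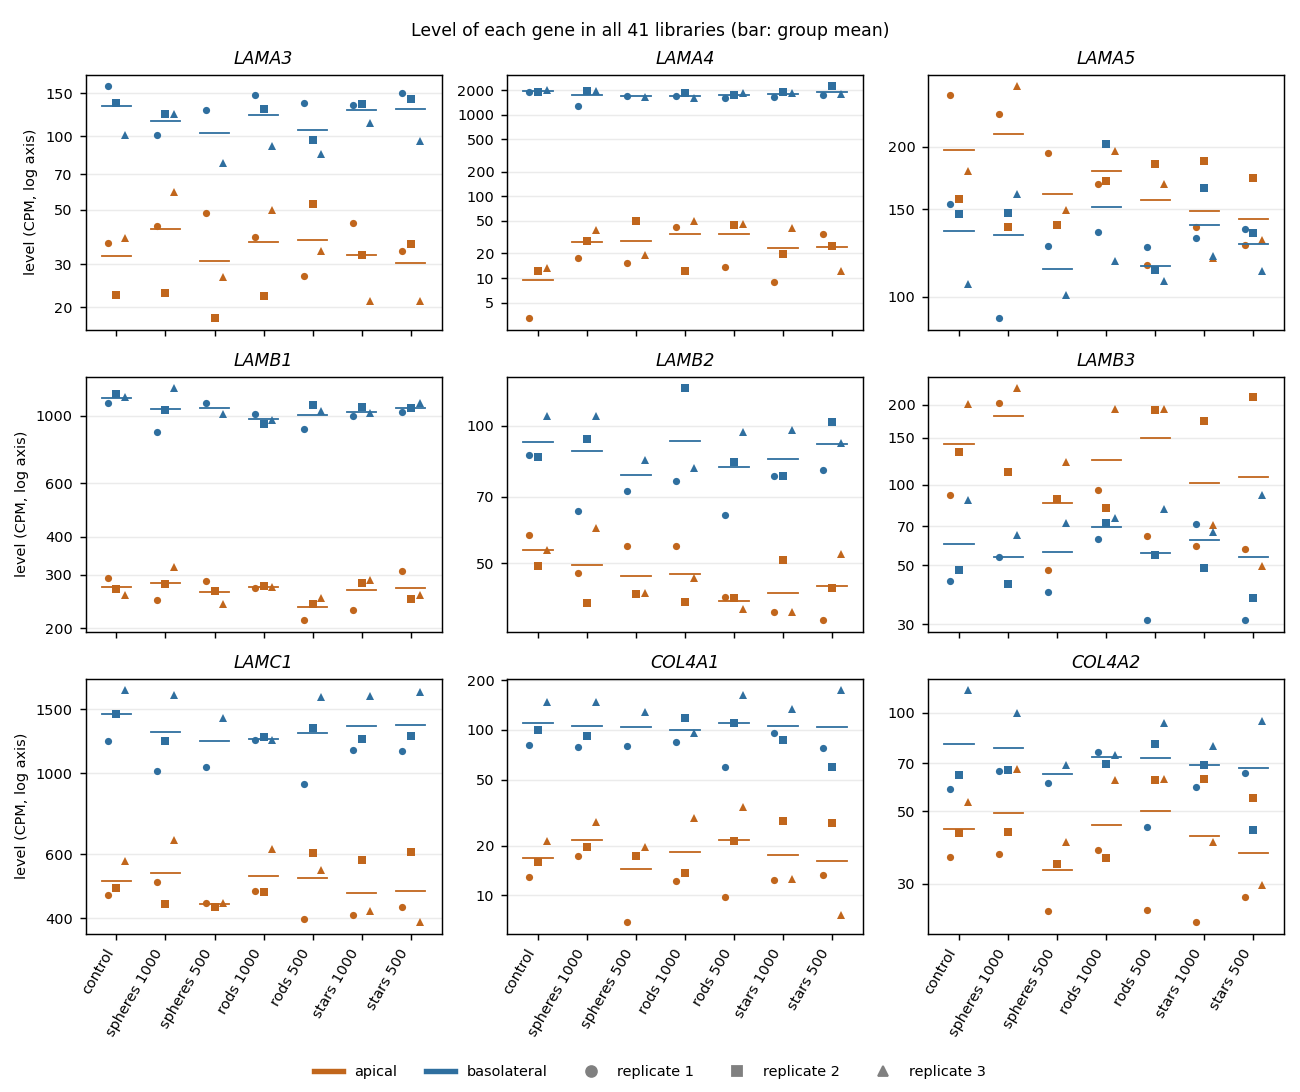
Level of each gene (CPM, log axis) in each of the 41 libraries by group, with apical libraries in orange, basolateral libraries in blue, a marker shape for each replicate number and a bar at the group mean. LAMA4, LAMA3, LAMB1, LAMB2, LAMC1 and COL4A1 showed no overlap between compartments, whereas LAMA5, LAMB3 and COL4A2 did. The share of all genes without such overlap was not counted.

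Among the alpha chains LAMA4 differed most. LAMA4 encodes the alpha chain of the laminins typical of blood vessel walls (ENSG00000112769, chromosome 6, 112108760 to 112254939, minus strand, GRCh38). It measured 3.24, 12.2 and 13.2 CPM in apical control replicates 1, 2 and 3, and 1895, 1904 and 1989 CPM in basolateral control. The groups lay far apart, with a log2 fold change of 7.71 ± 0.68 (SE, adjusted p = 1.97e-10 in edgeR). LAMA3, the alpha chain of the anchoring laminin of stratified and alveolar epithelium (ENSG00000053747, chromosome 18, 23689443 to 23956222, plus strand), was also higher basolaterally. Its levels were 36.6, 22.4 and 38.4 CPM in apical control and 160.4, 137 and 101 CPM in basolateral control, a log2 fold change of 2.14 ± 0.37 (adjusted p = 2.27e-05 in edgeR). The counts are per gene, so its short and long isoforms were not told apart.

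LAMA5, the alpha chain of the laminins most widespread in adult epithelium and also found in vessels (ENSG00000130702, chromosome 20, 62307955 to 62367312, minus strand), stood at 254, 157 and 179 CPM in apical control and 154, 147 and 106 CPM in basolateral control. Every basolateral control library lay below every apical one, but the log2 fold change of -0.43 ± 0.24 did not pass the test (adjusted p = 0.136 in edgeR). Over all 41 libraries with treatment as a term the difference was -0.31 ± 0.09 (adjusted p = 0.00255 in edgeR), in a fit that called 13059 of 16352 genes. Libraries of the same replicate number or apical library set may share a source, which that fit does not take into account. LAMA5 shares 244 exonic bases with ADRM1, a proteasome receptor gene on the opposite strand. The strand setting of the counting is not given in the sources used here, so reads of the shared bases cannot be told apart.

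To compare chains with each other, CPM was divided by the length of the principal transcript in kilobases. On this per-length scale LAMA5 made up 78.6 ± 5.81% of the summed alpha chain level in apical control, LAMA3 13.9 ± 2.62% and LAMA4 7.42 ± 4.79% (SD, n = 3). In basolateral control LAMA4 made up 92.5 ± 1.6%, with LAMA3 at 3.85 ± 0.89% and LAMA5 at 3.67 ± 0.724%. The compartments did not overlap in any library. LAMA4 took 1.93 to 36.1% of the alpha chain level over the 21 apical libraries and 90.5 to 94.3% over the 20 basolateral ones.

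The beta chains were less far apart. LAMB1, the beta chain shared by most developmental, epithelial and vascular laminins (ENSG00000091136, chromosome 7, 107923799 to 108003255, minus strand), measured 292, 269.5 and 257 CPM in apical control and 1098, 1180 and 1149 CPM in basolateral control. The groups were well separated and the replicates close, with a log2 fold change of 2.17 ± 0.12 (adjusted p = 4.56e-15 in edgeR). LAMB1 shares 70 exonic bases with DLD, a mitochondrial dehydrogenase gene on the opposite strand, under the same limit. LAMB2, a beta chain prominent in muscle, kidney and vessel walls (ENSG00000172037, chromosome 3, 49121114 to 49133118, minus strand), measured 57.6, 49.2 and 53.5 CPM in apical and 86.2, 85.5 and 105 CPM in basolateral control. The rise in log2 terms was 0.89 ± 0.19 (edgeR, adjusted p = 0.000239).

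LAMB3, the beta chain that pairs with LAMA3 in the anchoring laminin (ENSG00000196878, chromosome 1, 209614870 to 209652466, minus strand), had a fold change of the opposite sign. It measured 91.5, 133 and 201 CPM in apical control and 43.6, 47.8 and 88.0 CPM in basolateral control. The groups did not overlap, but replicates varied widely and the log2 fold change of -1.15 ± 0.57 did not pass the test (adjusted p = 0.0923 in edgeR). Over all 41 libraries with treatment as a term it was -1.03 ± 0.21 (adjusted p = 4.2e-05 in edgeR), in the same fit that called 13059 of 16352 genes. The limit on libraries that may share a source, given for LAMA5, holds here too.

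LAMC1, the gamma chain of most laminins (ENSG00000135862, chromosome 1, 183023460 to 183145592, plus strand), was the member with the highest level per length in apical control, at 64.3 ± 7.32 CPM per kilobase. It measured 464, 485 and 573 CPM in apical control and 1228, 1458 and 1692 CPM in basolateral control, a log2 rise of 1.63 ± 0.24 (edgeR, adjusted p = 1.26e-06). Per length, LAMC1 stood at 0.714 ± 0.00494 of the summed beta chains in apical control and 0.802 ± 0.0892 in basolateral control. Relative to the summed alpha chains it stood at 3.04 ± 0.682 apically and 0.570 ± 0.0862 basolaterally. The summed alpha chain level per length was thus below that of LAMC1 apically and above it basolaterally. Within the beta chains, LAMB1 made up 53.5 ± 8.77% apically and 86.9 ± 2.77% basolaterally, and LAMB3 35.9 ± 10.2% and 5.99 ± 2.2%.

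The collagen IV genes COL4A1 (ENSG00000187498, chromosome 13, 110148963 to 110307233, minus strand) and COL4A2 (ENSG00000134871, chromosome 13, 110305812 to 110513209, plus strand) lie head to head and are transcribed in opposite directions from a shared promoter. In RefSeq their first bases are 110307157 and 110307284 on chromosome 13 of GRCh38.p14, 126 bases apart, and GENCODE 29 places starts of some transcripts of both genes within that stretch. The stretch had 80.2% G and C, beside a median of 60.3% over the same length before the starts of 35116 RefSeq promoter windows. The motif CCAAT (or ATTGG on the other strand) occurred 1 time, as it does at least once in 21.1% of those windows, and GGGCGG (or CCGCCC), the core of a GC box, 1 time, beside 34.6% of windows. TATAAA (or TTTATA) was not found in these letters, beside 5.87% of windows that hold it. The 30 bases around each match are shown because the RefSeq starts of the pair lie on either side of them. Both motifs lie inside the GENCODE 29 spans given above for both genes. The motif is in capitals, written 5′ to 3′ on the COL4A2 strand (chr13:110307167-110307196 and chr13:110307207-110307236, GRCh38.p14, RefSeq).
CCAAT match: gggccgagctccCCAATttgttggcgctgc
GC box match: ccggcggtgcgcGGGCGGcgcctcaaaggg

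COL4A1 measured 12.97, 15.9 and 21.3 CPM in apical control and 81.1, 99.4 and 148 CPM in basolateral control. The log2 rise was 2.80 ± 0.54 (edgeR, adjusted p = 0.000104). COL4A2 measured 36.05, 42.9 and 53.2 CPM in apical control and 58.4, 64.4 and 117 CPM in basolateral control, a smaller rise of 0.96 ± 0.39 (adjusted p = 0.0428 in edgeR). In both genes replicate 3 was the highest library of each control group. The COL4A2 call was lost without basolateral control replicate 3 (log2 fold change 0.57, adjusted p = 0.282 in edgeR), without apical control replicate 1 (0.82, adjusted p = 0.135) or 2 (0.93, adjusted p = 0.113), with RLE scaling (0.89, adjusted p = 0.066), with no scaling (0.86, adjusted p = 0.0563), with no filter on low counts (0.97, adjusted p = 0.078) and with limma-voom (0.88, adjusted p = 0.0565).

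COL4A2 had more reads than COL4A1 in every apical library and fewer in every basolateral one. There were 2.66 ± 0.144 COL4A2 reads per COL4A1 read in apical control (2.78, 2.7 and 2.5) and 0.719 ± 0.0708 in basolateral control (0.719, 0.648 and 0.789). The principal transcripts differ little in length, and per kilobase the ratios were 2.71 and 0.732. The log2 difference of -1.89 reached p = 0.1 in a two-sided exact permutation test of 3 against 3, the smallest that design allows. Over all libraries the ratio ran from 1.83 to 3.90 apically and from 0.536 to 0.899 basolaterally, with no overlap. Permuting compartment labels within treatments over all 41 libraries (100000 resamples) gave a difference of -1.82 and p = 1e-05, the smallest these permutations can give. Libraries of the same replicate number may share a source, which that permutation does not take into account.

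**Figure D2:**
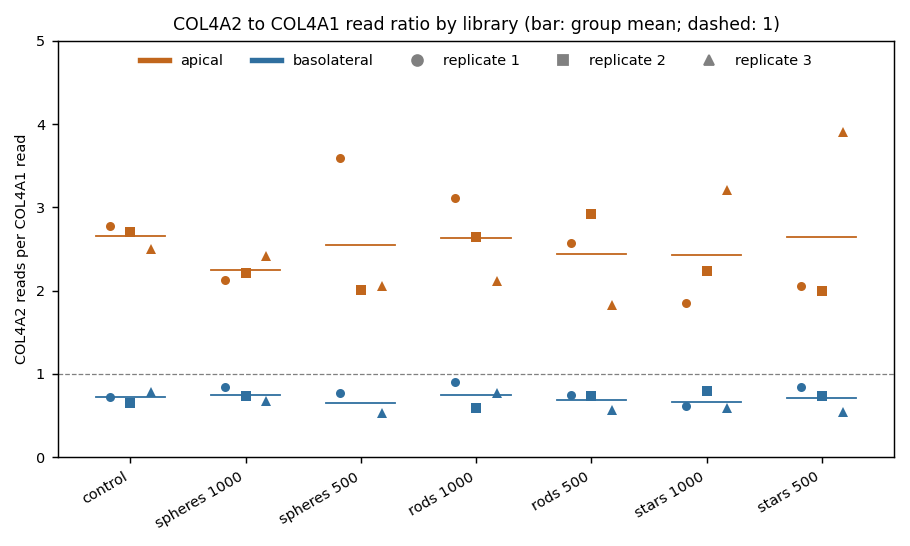
COL4A2 reads per COL4A1 read (linear axis from 0) in each library by group, orange for apical and blue for basolateral, with bars at group means and a dashed line at 1. All 21 apical libraries lay between 1.83 and 3.90 and all 20 basolateral libraries between 0.536 and 0.899.

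Other basement membrane genes were counted from fixed lists in the same comparison. Of 4 other collagen IV chains 1 was called higher and 3 lower in basolateral control. Of 12 tested linkers and proteoglycans 5 were called higher and 3 lower, of 15 genes for collagen IV folding and crosslinking 9 higher and 3 lower, and of 11 laminin and collagen IV receptors 3 higher and 5 lower. Over all genes tested, 51.4% were called in this comparison and 24.2% as higher. No list was tested against those shares. The smallest p-values over these lists belonged to PLOD1, TINAGL1 and ITGA6. PLOD1, which hydroxylates collagen lysines, measured 64.1 ± 2.18 CPM in apical and 214 ± 15 CPM in basolateral control (log2 fold change 1.85 ± 0.12, adjusted p = 1.96e-13 in edgeR). TINAGL1, a matrix glycoprotein, was at 0.203 ± 0.351 CPM apically, below the floor of 3 reads, and 29.3 ± 4.38 CPM basolaterally. ITGA6, the alpha subunit of laminin-binding integrins, measured 220.0 ± 21.1 and 672 ± 111 CPM (1.71 ± 0.16, adjusted p = 4.13e-10 in edgeR). Its partner subunits are named after their values were seen. ITGB4, the beta subunit of the hemidesmosomal laminin receptor, fell from 143 ± 35.7 to 24.8 ± 15.5 CPM (-2.42 ± 0.47, adjusted p = 0.000107 in edgeR), and ITGB1, the beta subunit shared by most matrix-binding integrins, measured 2530 ± 239 and 2350 ± 155 CPM (0.00 ± 0.11, adjusted p = 0.982).

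The second question was whether particles changed the chains within a compartment. With group as the only term, none of the 9 genes was called in any of the 12 comparisons with control in edgeR. Neither was any other gene (0% of 15225 genes tested apically and 0% of 14594 tested basolaterally, in each comparison). Fits of 2 groups with the replicate number as a block, given below, called LAMA4 in apical spheres 1000 and rods 500. Unadjusted p-values under 0.05 were held by 270 to 404 genes in the apical and 125 to 342 in the basolateral comparisons. In each comparison that is below a share of 0.05 of the genes tested, the share that evenly spread p-values would give. The 0 calls therefore do not show an absence of particle effects. DESeq2 called 0 to 4 genes and limma-voom 0. The tests over all 7 groups of a compartment, over its 6 particle groups and for a different particle effect between compartments also called 0% of genes. Unadjusted p-values under 0.05 numbered 212 over the 7 and 252 over the 6 apical groups, 99 and 114 basolaterally and 293 for the difference between compartments, and DESeq2 called 3, 1, 0 and 0 genes in the tests within compartments. Among the 9 genes an unadjusted p under 0.05 occurred 3 times in the 12 comparisons, for LAMA4 in apical rods 1000 and rods 500 and for LAMB2 in apical rods 500. Basolaterally there was none, with log2 fold changes from -0.37 to 0.18 and standard errors of 0.13 to 0.51. The 6 comparisons of a compartment share its 3 control libraries, so their values are not independent of each other.

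**Figure D3:**
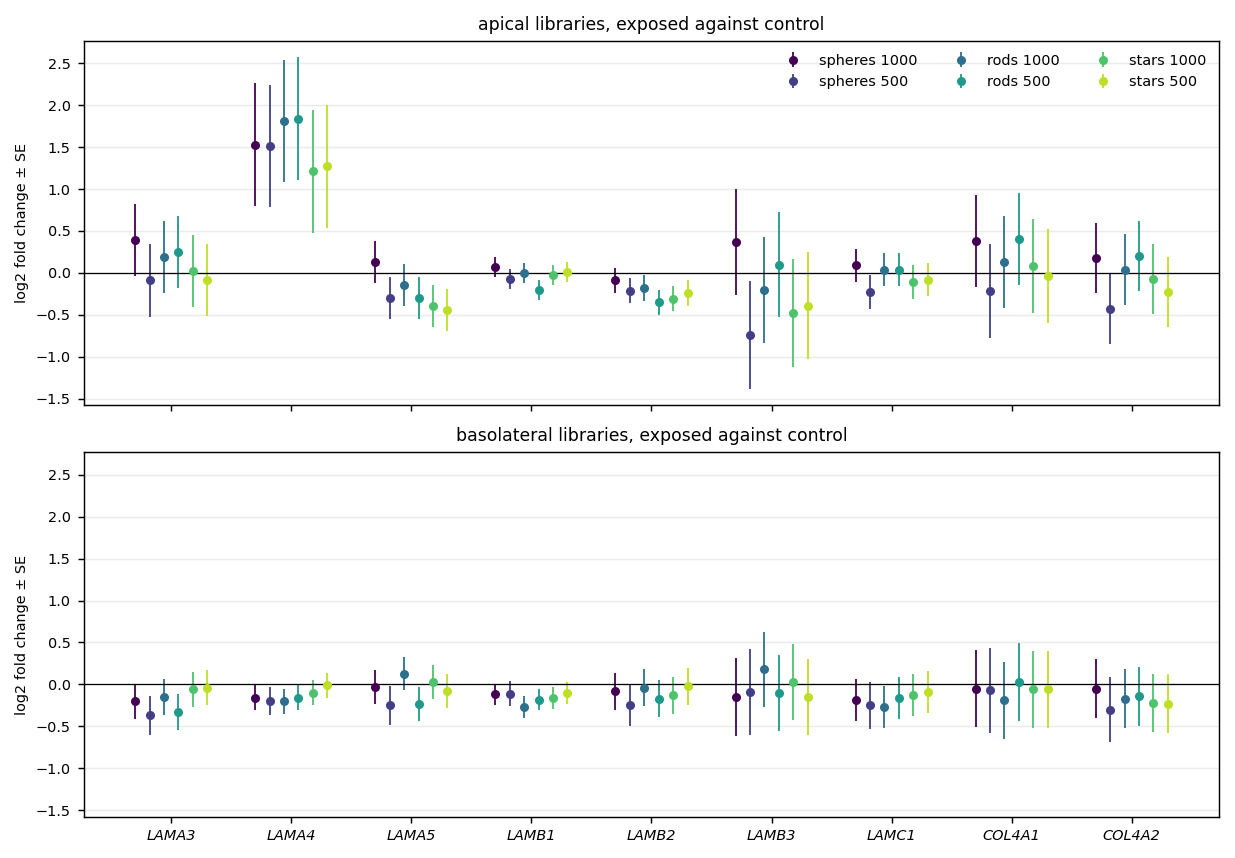
Log2 fold change ± SE of each gene in each particle group against the control of its compartment, apical above and basolateral below. Apical LAMA4 lay between 1.21 and 1.84 with standard errors of 0.73, and every other value lay between -0.74 and 0.40.

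LAMA4 had the largest apical fold changes of the 9 genes. Beside the apical control values given above (3.24, 12.2 and 13.2 CPM), replicates 1, 2 and 3 measured 17.4, 28.4 and 38.3 CPM in spheres 1000, 15.4, 50.5 and 19.3 CPM in spheres 500 and 42.8, 12.3 and 49.4 CPM in rods 1000. In rods 500 they measured 13.8, 44.4 and 46.2 CPM, in stars 1000 8.97, 19.6 and 40.9 CPM, and in stars 500 34.4, 24.6 and 12.4 CPM. All libraries of spheres 1000, spheres 500 and rods 500 lay above every control library, and the other 3 groups overlapped control. Over the 9 genes, 3 of 54 apical comparisons lay wholly above control and 3 wholly below. Basolaterally 0 of 54 lay wholly above and 7 wholly below. How many other genes separate in this way was not counted, so these counts have no background to be judged against. The log2 fold change was 1.53 ± 0.73 in spheres 1000, 1.51 ± 0.73 in spheres 500, 1.81 ± 0.73 in rods 1000 (unadjusted p = 0.025 in edgeR), 1.84 ± 0.73 in rods 500 (unadjusted p = 0.0229 in edgeR), 1.21 ± 0.73 in stars 1000 and 1.27 ± 0.73 in stars 500. The adjusted p was 1 in each. Control replicate 1, with 17 LAMA4 reads, was the lowest apical library, and without it the log2 fold change was 1.15 in spheres 1000, 1.43 in rods 1000, 1.47 in rods 500 and 0.89 in stars 500. It was 0.79 in spheres 500 without spheres 500 replicate 2 and 0.53 in stars 1000 without stars 1000 replicate 3.

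In spheres 1000 the same-numbered libraries of control and exposed groups deviated together. With only those 2 groups and the replicate number as a block, LAMA4 had a log2 rise of 1.60 ± 0.21 (edgeR, adjusted p = 0.00219), 1 of 27 genes called of 14013, or 0.193%. With all 7 apical groups in the fit and the same block, the value was 1.56 ± 0.72 and was not called. In rods 1000, where same-numbered libraries also deviated together, the fit of 2 groups with the block gave 1.66 ± 0.92 (adjusted p = 0.935 in edgeR), which was not called. With the library set as a block in the fit of 7 apical groups, spheres 1000 stood at 1.53 ± 0.74 (adjusted p = 0.902 in edgeR).

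Endothelial genes stood beside LAMA4 in the apical libraries. CDH5 measured 1.14, 4.35 and 7.56 CPM in apical control and 2.23 to 24.99 CPM over the 18 exposed libraries. Relative to basolateral control, LAMA4 stood at 0.496% in apical control and 1.49% on average in the exposed apical libraries, CDH5 at 0.530% and 1.59%, and ROBO4, a guidance receptor of endothelium, at 0.515% and 1.59%. The mean of the exposed apical libraries was 3.01 times the control mean for LAMA4, 3.01 times for CDH5 and 3.09 times for ROBO4. These 2 markers are named after their values were seen, as those nearest to LAMA4. The other markers measured in apical control had ratios from 1.08 times for MMRN1, a platelet and endothelial matrix protein, to 5.75 times for TEK, the angiopoietin receptor, with VWF, the clotting factor carrier, at 1.68 and KDR, a VEGF receptor, at 2.8. Pooled over libraries there were 2.20 LAMA4 reads per CDH5 read apically (1.57 to 5.54 by library) and 2.05 basolaterally (1.5 to 3.02). Summed over the 13 endothelial markers found, the apical level was 40.5 to 43.1 CPM in control and 41.1 to 103 CPM in the exposed libraries, with 9 to 12 of the 13 markers above their control mean in each particle group. In basolateral control the sum was 2189 to 2905 CPM. CLDN5 and EMCN were at 0 in apical control. No endothelial line stands among the apical labels, and the part of endothelial RNA in the apical LAMA4 level was not tested. Not all markers scaled alike, as ERG, a transcription factor of endothelium, stood at 7.74% of its basolateral level in apical control and 8.80% in exposed libraries.

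**Figure D4:**
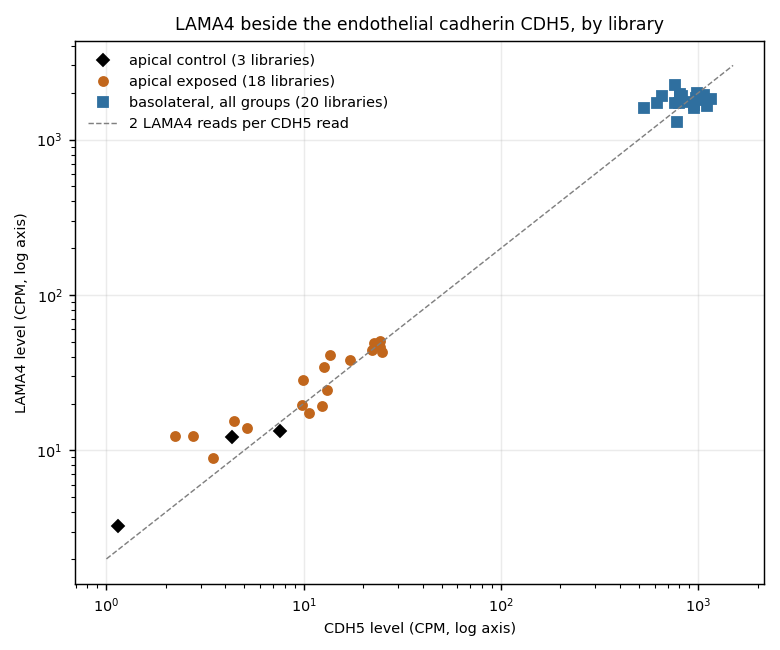
LAMA4 against CDH5 level (CPM, both axes log) in each library, with apical control as black diamonds, apical exposed libraries as orange circles, basolateral libraries as blue squares and a dashed line at 2 LAMA4 reads per CDH5 read. The pooled ratios were 2.20 apically (1.57 to 5.54 by library) and 2.05 basolaterally (1.5 to 3.02), and the dashed line was not fitted to the data.

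LAMB2 in apical rods 500 measured 42.2, 41.8 and 39.8 CPM, all below the control libraries at 57.6, 49.2 and 53.5 CPM. Its log2 fold change was -0.35 ± 0.15 (unadjusted p = 0.033, adjusted p = 1 in edgeR). LAMB1 in the same group measured 213, 240 and 251 CPM, also below control in every library (-0.20 ± 0.12, unadjusted p = 0.105 in edgeR). In basolateral rods 1000, LAMB1 measured 1009, 941 and 969 CPM beside 1098, 1180 and 1149 CPM in control (-0.27 ± 0.13, unadjusted p = 0.058 in edgeR).

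The range of group means differed between genes. Apically LAMA4 ran from 9.57 CPM in control to 34.8 in rods 500. In the apical compartment LAMB1 ran from 234 CPM in rods 500 to 281.5 in spheres 1000, LAMC1 from 437 in spheres 500 to 532 in spheres 1000, and LAMA5 from 143 in stars 500 to 212 in spheres 1000. LAMB3 ran from 85.8 in spheres 500 to 181.5 in spheres 1000, COL4A1 from 14.5 in spheres 500 to 21.7 in rods 500, and COL4A2 from 33.1 in spheres 500 to 49.9 in rods 500. Basolaterally control had the highest mean of the 7 groups for LAMA3 (133 CPM), LAMA4 (1929), LAMB1 (1143), LAMC1 (1459) and COL4A2 (79.9), and spheres 500, with 2 libraries, had the lowest mean for LAMA3 (103), LAMA4 (1683), LAMA5 (114), LAMB2 (78.2), LAMC1 (1228) and COL4A2 (65.1). When groups were ordered by mean, neighbours differed by more than the larger of their SDs in 1 of 6 steps for LAMB1 in each compartment and in none for the other 8 genes.

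Apical levels were also listed by the sets of KIT level, a split made from the data, with no test and no count of how many other genes differ in the same way. LAMB3 measured 174 to 230 CPM in the third set (KIT 103 to 138 CPM), beside 48.0 to 202 in the first and 49.6 to 133 in the second. COL4A2 measured 53.2 to 67.4 CPM in the third set and at most 43.2 elsewhere, COL4A1 21.3 to 34.1 and at most 19.6, and LAMC1 544 to 656 and at most 503. LAMA3 was lowest in the second set, at 18.1 to 26.6 CPM, beside 26.8 to 59.2 in the others. LAMB1 and LAMB2 overlapped among all 3 sets. Spheres 500, which had no library of the third set, had the lowest apical mean for LAMB3, LAMC1, COL4A1 and COL4A2, and rods 500, with 2 libraries of it, the highest for COL4A1 and COL4A2.

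**Figure D5:**
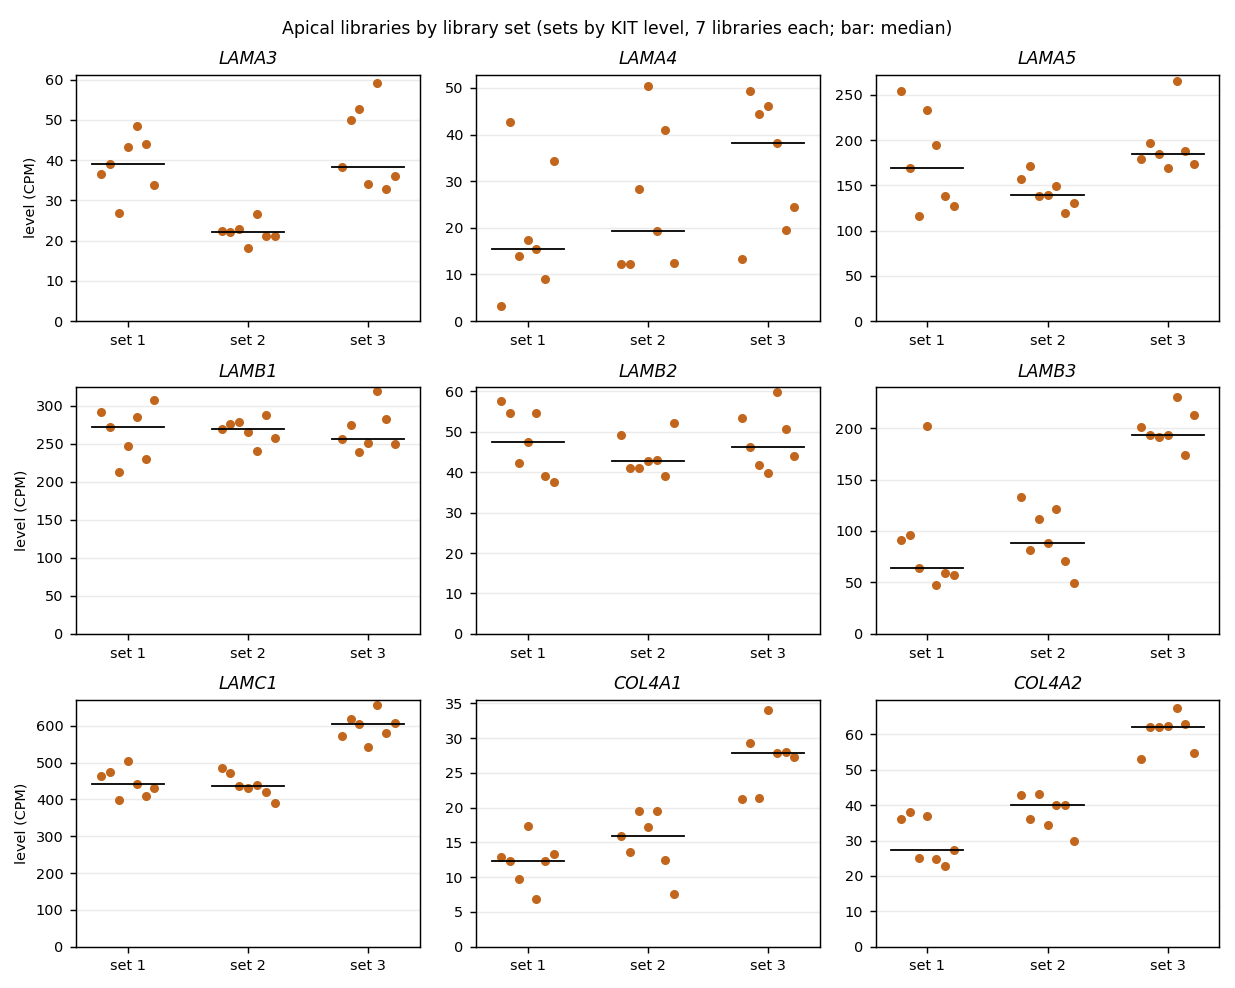
Level (CPM, linear axis from 0) of each gene in the 21 apical libraries by library set, 7 libraries in each set, with bars at medians. COL4A1 stood at 21.3 to 34.1 CPM in the third set and LAMB1 and LAMB2 overlapped among all 3.

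Likeness was sought among 9026 genes with a mean log2 CPM of at least 3 in both compartments. This left out endothelial markers with low apical levels, such as ROBO4. By pattern over the 14 group means (each centred on its compartment), the candidate nearest to LAMA4 was CDH5 (Pearson r = 0.955). Next came PGF, a placental growth factor (0.946), and SPARC, a collagen-binding matrix protein (0.91). LAMB3 was nearest to SMAD3, a transducer of TGF-beta signals (0.952), and LAMC1 to UTRN, a cytoskeletal anchor protein (0.951). COL4A1 was nearest to PDE4B, a cAMP phosphodiesterase (0.939), and COL4A2 had the same gene as its second nearest (0.914). LAMA3 was nearest to MDM2, the ubiquitin ligase of p53 (0.938), LAMA5 to TP53BP1, a DNA damage protein (0.933), LAMB1 to RREB1, a zinc finger factor (0.914), and LAMB2 to CPSF1, a subunit of the RNA cleavage machinery (0.847). The groups share library sets and depth across all genes, so these values describe these samples only.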

How the data were processed

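Libraries were made with the SMARTer Stranded Total RNA kit from 1 µg of RNA purified with QIAGEN reagents, per the labels' protocols. The values are read counts per gene, which the authors deposited as unnormalized whole numbers. Per the submitters' processing notes the genome build was GRCh38.p13, and for the aligner, counter, strand setting and annotation nothing is stated (not given in the sources used here). Even numbers made up 69.0 to 80.1% of counts from 1 to 10, so both reads of a pair may have been counted. Positions and transcript lengths came from GENCODE 29 (GRCh38), matched by gene identifier.

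CPM are counts per 1000000 counts of the library. The robust quasi-likelihood F test of edgeR 4.0.16 in R 4.3.3 was used with TMM scaling, filterByExpr and group as the only term, in 1 fit per compartment and 1 of all 14 groups for compartment differences, with Benjamini-Hochberg adjustment over all genes. Alternatives were RLE or no scaling, no filter, DESeq2 1.42.0, limma-voom 3.58.1, replicate or library set blocks, 2-group fits and leaving out each library. The test was tried on simulated data without library sets or pairing by replicate number. That trial does not show how the test behaves on these libraries. The p-values rest on the spread among samples that the design text calls biological replicates.

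The members and lists were chosen with earlier results of these data known. All 9 members are named, and other listed genes were named by p, up to 3 per comparison. By the rule, fold changes are for members called or with an unadjusted p under 0.05. Beyond it, those of other members are given as values only, and listed genes beyond 3, including markers, were named after their values were seen. Of 127 listed genes 126 were found, and PECAM1 was not analysed here. The list of other laminin chains is not reported here. Libraries were described as paired by replicate number if the deviations from group means of all same-numbered libraries correlated above 0.1. The main fits kept group as the only term in every comparison, and the replicate number entered only as a block among the alternatives. Such pairing was found for apical spheres 1000 (0.415, 0.207 and 0.532), apical rods 1000 (0.4, 0.135 and 0.551) and basolateral stars 1000 (0.395, 0.159 and 0.421) against control, and not between the controls of the compartments (0.184, 0.0402 and 0.151). The 3-read floors cover counting error only.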

Additional observations from a re-analysis of the deposited data

Results flagged for a closer look

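LAMA4 stood above every control library in apical spheres 500 and rods 500, and below every control library in the same basolateral groups (log2 fold changes of -0.20 ± 0.17 and -0.16 ± 0.15), and none of these differences from control passed the test in either compartment. Basolateral spheres 500 had 2 libraries, and how many other genes separate in this way was not counted. The 2 groups were picked by this separation, so the test of the difference in the same samples, in edgeR with all 14 groups, is not independent of that choice. The basolateral log2 fold change minus the apical one was -1.72 ± 0.79 for spheres 500 (unadjusted p = 0.037, adjusted p = 1) and -2.06 ± 0.74 for rods 500 (unadjusted p = 0.00905, adjusted p = 1). In the other groups it was -1.73 ± 0.74 for spheres 1000, -2.00 ± 0.73 for rods 1000, -1.31 ± 0.74 for stars 1000 and -1.31 ± 0.74 for stars 500 (unadjusted p = 0.0257, 0.0108, 0.086 and 0.0864, adjusted p = 1 in each). The joint test over the 6 particle groups gave an unadjusted p of 0.138 for LAMA4. The apical values stand beside the CDH5 levels given above, whose part in them was not tested.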

How the results depend on the processing

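No alternative run reversed the fold changes of the 9 genes between compartments, of LAMA4 in the 6 apical comparisons or of LAMB2 in apical rods 500. Of 586 alternative values, 570 kept their side of the threshold or, for counts, stayed within 1.5 times. Of these, 343 were counts of called members or values of the COL4A2 to COL4A1 ratio. Counts of 0 in particle comparisons, where almost no gene passed, could hardly change. The ratio tests on control libraries alone cannot reach a p under 0.05. The 570 therefore do not measure how stable the results are. With only the 2 groups and the replicate number as a block, 1 of the 9 genes was called in apical spheres 1000 (among 27 of 14013 genes) and 1 in apical rods 500 (the 1 gene called of 14020), LAMA4 in both and 0 without the block. In rods 500 its log2 fold change was then 1.91 ± 0.17 (adjusted p = 0.0282 in edgeR), but same-numbered libraries of that comparison did not all deviate together (0.474, -0.0908 and 0.421). In no other particle comparison did the block call a member. Between the compartments 6 to 9 of the 9 genes were called over the alternatives, 6 to 7 when 1 library was left out. Those fits without 1 control library called 7033 to 8053 genes in all, with 16333 tested in the fits at both ends. The setting that called all 9, with all 41 libraries and treatment as a term, called 13059 of 16352 genes. It took no account of libraries that may share a source. With the replicate block LAMB3 was called as well (-1.13 ± 0.48, adjusted p = 0.0491 in edgeR; -1.10 ± 0.11, adjusted p = 0.00147 with only the 2 groups). The COL4A2 call was lost in the 7 settings named above, and the log2 fold change of COL4A2 ran from 0.57 to 1.15 with 1 library left out. The log2 difference of the COL4A2 to COL4A1 ratio ran from -1.96 to -1.82 with 1 control library left out and was -1.82 over all 41 libraries. With same-numbered libraries paired, the exact permutation p of the ratio was 0.25, the smallest 3 pairs allow. The median log2 fold change over all genes between the compartments was -0.08 with TMM, -0.15 with RLE and -0.18 with no scaling. With 17 reads in the lowest apical control library, LAMA4 in apical control is the value that depth limits most.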

Other observations

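The less common collagen IV chains lay mostly on the apical side. These genes were named after their values were seen. COL4A6 measured 58.8 ± 7.89 CPM in apical and 16.3 ± 3.69 CPM in basolateral control (log2 fold change -1.75 ± 0.22, adjusted p = 1.48e-07 in edgeR), and COL4A4 15.2 ± 0.765 and 1.15 ± 0.448 CPM (-3.61 ± 0.63, adjusted p = 2.03e-05). COL4A3 measured 3.17 ± 1.35 and 0.302 ± 0.290 CPM. COL4A5, which pairs with COL4A6 in some epithelial basement membranes, was higher basolaterally, at 41.5 ± 8.86 and 57.9 ± 4.92 CPM (0.59 ± 0.14, adjusted p = 0.000951).

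Among linkers, HSPG2, which encodes the heparan sulfate proteoglycan perlecan, measured 54.7 ± 10.7 CPM in apical and 861 ± 139 CPM in basolateral control (4.09 ± 0.40, adjusted p = 1.67e-09 in edgeR). SERPINH1, the collagen chaperone of the endoplasmic reticulum, measured 48.1 ± 10.2 and 265 ± 49.1 CPM (2.56 ± 0.24, adjusted p = 4.18e-10). PXDN, which crosslinks collagen IV through sulfilimine bonds, measured 10 ± 2.73 and 167 ± 30.4 CPM (4.14 ± 0.39, adjusted p = 4.85e-10). SMOC1, a calcium-binding protein of basement membranes, was lower basolaterally, at 92.8 ± 17.1 and 5.45 ± 5.04 CPM (-4.00 ± 0.76, adjusted p = 8.42e-05).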
